A study of Mus musculus with 15 samples.

Results

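The vertebrate circadian clock is a feedback loop of transcription that runs in almost every cell and follows the light cycle and feeding time in liver. ARNTL (also called BMAL1) pairs with CLOCK or with its relative NPAS2, and the pair binds E-box sequences and switches on the period genes (Per1, Per2, Per3), the cryptochrome genes (Cry1, Cry2), Nr1d1 and Dbp. PER and CRY proteins then shut the pair down, NR1D1 (REV-ERBα) represses Arntl, Npas2 and Cry1 through ROR/REV-ERB elements, and DBP drives output genes through D-box elements, so that most of these transcripts go up and down over each day.

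The transcripts of 10 core clock genes were examined: the activators Arntl, Clock and Npas2, the repressors Per1, Per2, Per3, Cry1 and Cry2, the nuclear receptor gene Nr1d1 and the output activator gene Dbp. They were taken as a named list that was chosen with earlier results of these data known. They make up 10 of the 37991 gene identifiers in the count table, and all 10 had enough reads to be among the 14258 genes tested. Whole livers came from female C57BL/6 mice in 3 groups of 5 libraries: young WT (wild type, 90 days), old WT (wild type, 600 days) and old KO (600 days, with a deletion of Rps6kb1, the gene of ribosomal S6 kinase 1 (S6K1), in the whole body). WT and KO mice were littermates from crosses of heterozygotes and were fed chow freely under a light and dark cycle; there was no young KO group, so genotype was compared at 600 days only, and the hour at which the livers were taken is not given in the sources used here, so its part in the results was not tested.

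Levels are given as CPM, the count per 1000000 reads with library totals scaled by TMM in edgeR, and differences between groups as log2 fold changes of edgeR's quasi-likelihood fit to all 15 libraries, with adjusted p-values (Benjamini-Hochberg over the 14258 genes, threshold 0.05). Library totals lay between 21801754 and 38065359 reads for young WT, 27063911 and 31990482 for old WT, and 21984658 and 27923739 for old KO. Rps6kb1 itself was at 38.3 ± 3.14 CPM in young WT, 38.4 ± 4.21 in old WT and 17.0 ± 2.23 in old KO (SD, n = 5 each), and every old KO library was below every WT library (old KO minus old WT log2 fold change -1.17, SE 0.0979, adjusted p = 8.54e-06). The liver label was borne out by the summed level of 6 hepatocyte markers, the highest of the cell type lists counted. It was at least 82121 CPM in young WT, 89574 CPM in old WT and 110099 CPM in old KO libraries. As whole liver was used, fewer cells of a type and less RNA per cell cannot be told apart.

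RefSeq start-site windows, which run from 250 bases before to 50 bases after a start on build GRCm38.p6, were available for 9 of the 10 genes (13 windows in all; Per2 has no window here). They were searched on both strands for the E-box CACGTG, the E-box variant CACGTT, the D-boxes TTATGTAA and TTACGTAA, and the ROR/REV-ERB elements TAGGTCA and TGGGTCA, none of which overlaps another in the windows shown. The windows of Cry1, Nr1d1, Arntl and Npas2 are shown because Cry1, Nr1d1 and Npas2 are the members whose levels differed with age and Arntl is the partner of the Npas2 protein. Each is written 5′ to 3′ on the strand of its gene, with the matches in capitals (AACGTG is CACGTT read on the opposite strand).
Cry1, chr10:85185005-85185304, minus strand: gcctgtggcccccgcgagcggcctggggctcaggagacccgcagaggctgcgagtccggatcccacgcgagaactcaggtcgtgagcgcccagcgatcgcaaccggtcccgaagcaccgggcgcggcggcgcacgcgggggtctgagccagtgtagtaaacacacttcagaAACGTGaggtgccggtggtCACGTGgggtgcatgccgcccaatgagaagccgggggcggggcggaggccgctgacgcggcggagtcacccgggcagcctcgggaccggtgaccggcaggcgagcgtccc
Nr1d1, chr11:98775328-98775627, minus strand: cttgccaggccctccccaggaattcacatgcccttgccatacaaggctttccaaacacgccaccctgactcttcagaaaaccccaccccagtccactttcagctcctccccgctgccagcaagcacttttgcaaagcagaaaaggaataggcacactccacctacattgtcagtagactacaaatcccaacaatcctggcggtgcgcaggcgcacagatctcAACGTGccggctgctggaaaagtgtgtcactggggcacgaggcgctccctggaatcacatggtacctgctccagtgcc
Arntl, chr7:113207261-113207560, plus strand: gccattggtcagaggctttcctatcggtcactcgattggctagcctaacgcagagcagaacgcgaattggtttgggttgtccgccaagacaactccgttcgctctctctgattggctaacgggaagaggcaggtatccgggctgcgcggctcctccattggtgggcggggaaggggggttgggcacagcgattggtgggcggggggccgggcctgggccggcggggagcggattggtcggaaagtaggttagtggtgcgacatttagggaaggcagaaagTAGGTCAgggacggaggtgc
Npas2, chr1:39194022-39194321, plus strand: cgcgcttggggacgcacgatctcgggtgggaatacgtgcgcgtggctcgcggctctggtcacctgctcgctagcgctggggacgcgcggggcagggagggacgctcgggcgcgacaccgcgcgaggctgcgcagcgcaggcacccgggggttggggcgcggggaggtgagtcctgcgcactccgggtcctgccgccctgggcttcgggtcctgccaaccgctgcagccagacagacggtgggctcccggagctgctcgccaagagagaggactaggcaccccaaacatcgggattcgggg

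The Cry1 window held an E-box whose first base lay at -60 from the start site and the variant at -79. The Nr1d1 window held the variant at -28, and the window of the Arntl start shown held a ROR/REV-ERB element at 30, while the Npas2 window held none of these letters. Of the windows not shown, that of a Per1 start held an E-box at -166, that of Cry2 the variant at -166 and that of Per3 2 D-boxes, the nearer to its upstream end at -205. The shares of all 32851 windows with a match were 7.15% for the E-box, 4.68% for its variant, 1.06% for the D-boxes and 6.45% for the ROR/REV-ERB elements. A match is a string of letters and not a bound site, and no binding was measured in these livers.

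With age, the levels of 3 of the 10 transcripts differed. Npas2 and Cry1 rose and Nr1d1 fell in old WT livers against young WT livers, whereas Arntl, Clock, Per1, Per2, Per3, Cry2 and Dbp did not pass the test. Of all 14258 genes tested, 18.8% passed in this comparison (9.92% higher and 8.91% lower), the background against which 3 of 10 is to be read. The median log2 fold change of the 10 genes was 0.03, beside 0.01 for all genes tested, and their values ran from -1.46 to 0.99.

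**Figure D1:**
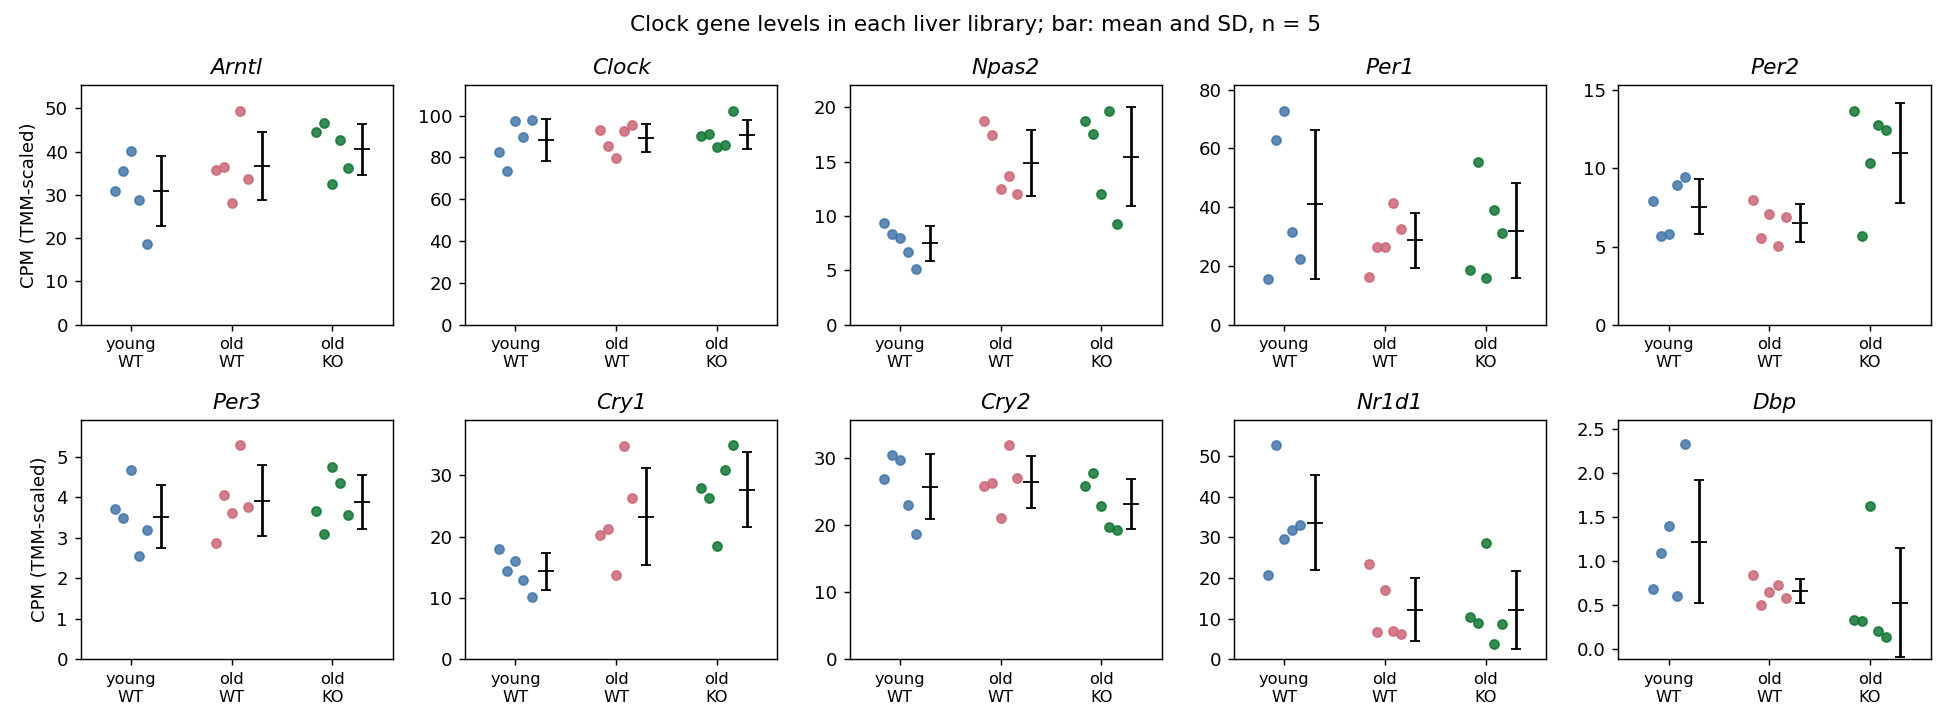
Levels of the 10 clock genes in CPM (vertical axes, 1 scale per gene) in each of the 5 young WT, 5 old WT and 5 old KO liver libraries; points are libraries in label order, and the bar beside them gives the mean and SD. Npas2 of old WT sits between 12.1 and 18.8 CPM, above all young WT points, while 2 old WT points of Nr1d1 stand at 17.2 and 23.5 CPM, apart from the other 3.

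Among the activators, Npas2, which encodes the CLOCK relative that can take its place beside ARNTL, gave the clearest difference. Its level was 9.32, 8.34, 7.99, 6.69 and 5.09 CPM in young WT 1, 2, 3, 4 and 6 and 18.8, 17.5, 12.5, 13.7 and 12.1 CPM in old WT 1, 4, 5, 7 and 10. In old KO 1, 2, 4, 5 and 6 it was 18.7, 17.6, 12.0, 19.7 and 9.28 CPM. All 5 old WT libraries were thus above all 5 young WT libraries, a separation without overlap that 11.4% of all genes tested showed in this comparison and that no other clock gene showed. The mean went from 7.48 ± 1.64 CPM in young WT to 14.9 ± 3.05 CPM in old WT (SD, n = 5 each), a 1.98-fold difference (log2 fold change 0.99, SE 0.209, adjusted p = 0.00499). The difference passed the test whichever of the 15 libraries was left out.

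Arntl, the partner that both CLOCK and NPAS2 need, overlapped between the age groups. It was at 30.9, 35.6, 40.2, 28.8 and 18.7 CPM in young WT, at 35.8, 36.4, 28.0, 49.5 and 33.6 CPM in old WT and at 44.6, 46.5, 32.6, 42.8 and 36.1 CPM in old KO. The lowest of all 15 values belongs to young WT 6 and the highest to old WT 7, and the old WT range encloses most of the young WT values. The mean was 30.8 ± 8.09 CPM in young WT and 36.7 ± 7.89 CPM in old WT (SD, n = 5 each; log2 fold change 0.25, SE 0.178, adjusted p = 0.351).

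Clock, whose product is the usual partner of ARNTL, was the steadiest of the 10. It ran from 73.7 to 97.8 CPM in young WT, from 79.8 to 95.7 CPM in old WT and from 84.8 to 102 CPM in old KO, with means of 88.3 ± 10.2, 89.4 ± 6.60 and 90.9 ± 6.95 CPM (SD, n = 5 each). Its log2 fold change with age was 0.02 with an SE of 0.0864 (adjusted p = 0.905).

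Among the repressors, Cry1, the cryptochrome that represses CLOCK and ARNTL most strongly, rose with age. It was at 18.1, 14.4, 16.1, 13.0 and 10.2 CPM in young WT, at 20.2, 21.2, 13.7, 34.8 and 26.2 CPM in old WT and at 27.9, 26.2, 18.5, 30.8 and 34.9 CPM in old KO. Of the old WT libraries, 4 of 5 were above all young WT libraries and old WT 5, at 13.7 CPM, lay within their range. Means were 14.4 ± 2.99 and 23.2 ± 7.86 CPM (SD, n = 5 each), a 1.61-fold difference (log2 fold change 0.69, SE 0.217, adjusted p = 0.0373). The call is near the threshold and was lost without young WT 2, 4 or 6 or without old WT 4, 7 or 10, with adjusted p-values from 0.0139 to 0.0868 over the 15 fits that each leave out 1 library.

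Its paralog Cry2 lay between 18.7 and 30.4 CPM in young WT, between 21.1 and 31.9 CPM in old WT and between 19.4 and 27.9 CPM in old KO. The young and old WT means, 25.8 ± 4.90 and 26.4 ± 3.84 CPM (SD, n = 5 each), differed by less than the SD of either group (log2 fold change 0.03, SE 0.142, adjusted p = 0.890).

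The period genes differed from one another mainly in how far the libraries of a group lay apart. Per1, which also answers directly to glucocorticoid and cAMP signals, was at 15.6, 62.8, 72.9, 31.5 and 22.4 CPM in young WT, at 16.2, 26.6, 26.5, 41.3 and 32.7 CPM in old WT and at 18.7, 55.4, 15.9, 39.0 and 31.2 CPM in old KO. Young WT 2 and 3 were the highest of all, and young WT 1 the lowest, so the young group alone held the whole range. Its log2 fold change with age was -0.52 with an SE of 0.406 (adjusted p = 0.397), from means of 41.0 ± 25.4 and 28.7 ± 9.23 CPM (SD, n = 5 each).

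Per2 was at 7.90, 5.68, 5.80, 8.95 and 9.49 CPM in young WT and at 7.97, 5.55, 7.07, 5.02 and 6.91 CPM in old WT. These ranges overlap over most of their length (log2 fold change -0.21, SE 0.216, adjusted p = 0.519). Per3, a period gene that mice can lose with little effect on their daily rhythm, stayed between 2.56 and 5.28 CPM in all 15 libraries, with means of 3.52 ± 0.770 CPM in young WT and 3.91 ± 0.878 CPM in old WT (SD, n = 5 each; log2 fold change 0.15, SE 0.182, adjusted p = 0.603).

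Nr1d1, the REV-ERBα gene, fell with age and had the largest fold difference of the 10. Young WT libraries held 20.7, 52.6, 29.7, 31.9 and 33.1 CPM, old WT libraries 23.5, 6.86, 17.2, 7.11 and 6.32 CPM, and old KO libraries 10.5, 8.97, 28.5, 3.90 and 8.82 CPM. Old WT 4, 7 and 10 stood close together near 7 CPM, old WT 5 was also below every young WT library, and old WT 1 was above the lowest young WT library. The mean was 33.6 ± 11.7 CPM in young WT and 12.2 ± 7.75 CPM in old WT (SD, n = 5 each), a ratio of 0.365 (log2 fold change -1.46, SE 0.458, adjusted p = 0.0368). This call was lost without young WT 2, 3 or 4 or without old WT 4, 7 or 10, with adjusted p-values from 0.0163 to 0.0941 and log2 fold changes from -1.83 to -1.24 over the 15 fits.

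Dbp, the D-box activator that is among the most rhythmic transcripts of liver, was the least abundant of the 10 by CPM. It was at 0.684, 1.10, 1.40, 0.603 and 2.33 CPM in young WT, at 0.843, 0.498, 0.656, 0.733 and 0.588 CPM in old WT and at 0.337, 0.327, 1.63, 0.210 and 0.139 CPM in old KO. The old WT values lie within a narrow band and overlap with the lower young WT values (log2 fold change -0.85, SE 0.499, adjusted p = 0.252). The lowest value, in old KO 6, rests on 3 reads, whose exact 95% Poisson interval runs from 0.0287 to 0.407 CPM and covers counting error only.

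**Figure D2:**
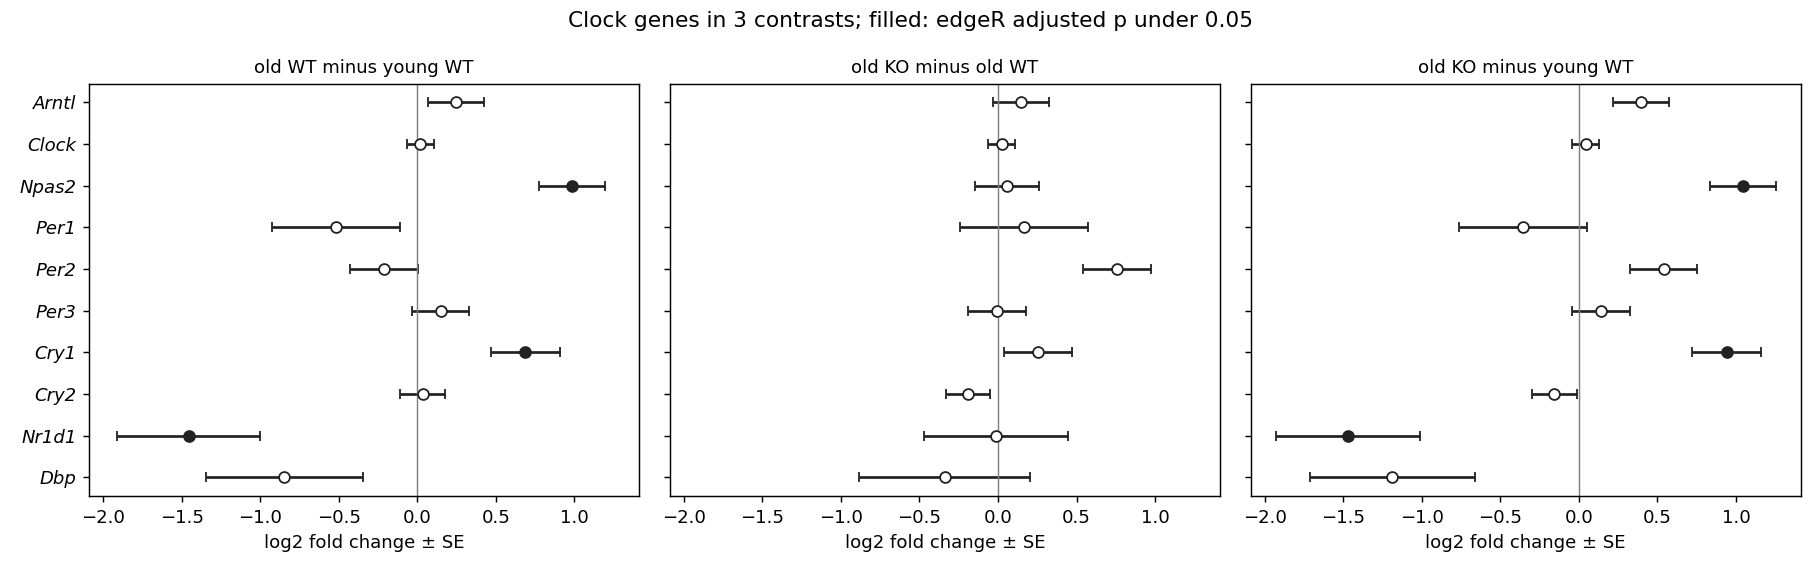
Log2 fold change (horizontal axes) with its SE for each clock gene in the comparisons old WT minus young WT, old KO minus old WT and old KO minus young WT; filled points passed the edgeR test at an adjusted p under 0.05. Npas2, Cry1 and Nr1d1 are filled in both comparisons with young WT, and no point is filled between the old groups.

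Loss of S6K1 at 600 days went with no called difference in any of the 10 genes. In old KO against old WT livers, 0 of 10 passed the edgeR test, beside 0.533% of all genes tested (0.112% higher and 0.421% lower). Per2 alone of the 10 was under an unadjusted p of 0.05, as were 1661 of all 14258 genes tested. DESeq2 also called Per2 alone of the 10, where it called 309 of 14424 genes. The edgeR log2 fold changes of the 10 ran from -0.34 for Dbp to 0.75 for Per2, with a median of 0.04 beside 0.00 for all genes. No clock gene separated the old groups without overlap, which 3.20% of all genes did.

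Per2 was the nearest to a difference between the genotypes. In old KO 1, 2, 4, 5 and 6 it was at 13.7, 5.70, 10.4, 12.8 and 12.4 CPM, so that 4 of 5 libraries were above the highest old WT library, at 7.97 CPM, and old KO 2 lay within the old WT range. Means were 6.50 ± 1.20 CPM in old WT and 10.999 ± 3.20 CPM in old KO (SD, n = 5 each; log2 fold change 0.75, SE 0.216), with an adjusted p of 0.146 by edgeR and of 0.0345 by DESeq2. Without old KO 2 the log2 fold change was 0.91 and the edgeR adjusted p was 0.0510.

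The genes that differed with age did not pass between the old groups, and their estimates differ in precision. Npas2 had a log2 fold change of 0.06 with an SE of 0.205 (adjusted p = 0.955), from 14.9 ± 3.05 CPM in old WT to 15.5 ± 4.56 CPM in old KO (SD, n = 5 each). Nr1d1 had -0.01 with an SE of 0.460 (adjusted p = 0.998), with the wider SE of the genes that spread most between libraries. Cry1 had 0.25 with an SE of 0.215 (adjusted p = 0.714), from 23.2 ± 7.86 to 27.7 ± 6.06 CPM (SD, n = 5 each). For Nr1d1, leaving out 1 library moved the estimate between -0.60 and 0.36.

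Arntl, Clock, Per1, Per3 and Cry2 had log2 fold changes between the old groups of 0.15, 0.02, 0.16, -0.01 and -0.19, with adjusted p-values from 0.662 to 0.995. Dbp had -0.34 with an SE of 0.545 (adjusted p = 0.875). Its old KO values are 4 libraries at 0.139 to 0.337 CPM, all below the lowest old WT library, and old KO 4 at 1.63 CPM, above every old WT library. Without old KO 4 the log2 fold change of Dbp was -1.35 with an adjusted p of 0.286.

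Old KO livers were also set against young WT livers, where both age and genotype differ and the libraries are those of the comparisons above. The genes called were Npas2 and Cry1, higher in old KO, and Nr1d1, lower, that is 3 of 10, beside 23.3% of all genes tested (12.0% higher and 11.3% lower). Npas2 had a log2 fold change of 1.04 (SE 0.209, adjusted p = 0.00272), with 4 of 5 old KO libraries above all young WT libraries and old KO 6, at 9.28 CPM, within their range. Cry1 had 0.94 (SE 0.218, adjusted p = 0.00624), and here all 5 old KO libraries were above all young WT libraries, as 13.9% of all genes tested were without overlap.

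Nr1d1 had a log2 fold change of -1.47 in old KO against young WT (SE 0.461, adjusted p = 0.0308), with old KO 4 again among the young WT values. It was not called without young WT 2 or without old KO 1, 2, 5 or 6, and without old KO 4 it was -2.06 with an adjusted p of 0.00498. The other 7 genes did not pass. Under an unadjusted p of 0.05 were 6 of the 10 (Npas2, Cry1, Nr1d1, Per2, Dbp and Arntl), beside 5251 of all 14258 genes tested. Per2 had 0.54 (SE 0.215, adjusted p = 0.0783) and, without old KO 2, 0.71 with an adjusted p of 0.0101. Dbp had -1.19 (SE 0.523, adjusted p = 0.111) and, without old KO 4, -2.20 with an adjusted p of 0.00370, so that 1 library decides each of these calls.

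To set the genes beside one another, CPM was divided by the length of the merged exons of each gene in kb (GENCODE M1 on NCBIM37, the assembly also called mm9). In young WT the order of the mean CPM per kb was Nr1d1 10.8, Arntl 10.5, Clock 9.995, Per1 7.28, Cry1 4.76, Cry2 4.08, Npas2 1.56, Per2 1.29, Dbp 0.415 and Per3 0.366. Neighbours in this order overlapped in their ranges except at the step from Cry2 (2.96 to 4.82) to Npas2 (1.06 to 1.95) and the step from Per2 (0.972 to 1.62) to Dbp (0.205 to 0.791). The young livers therefore had 3 tiers of clock transcript, with 6 genes in the upper one, Npas2 and Per2 in the middle and Dbp and Per3 at the bottom.

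In old WT the order was Arntl 12.5, Clock 10.1, Cry1 7.71, Per1 5.09, Cry2 4.18, Nr1d1 3.90, Npas2 3.11, Per2 1.11, Per3 0.407 and Dbp 0.225 CPM per kb. Nr1d1 stood in sixth place there, and the steps without overlap were those from Npas2 (2.52 to 3.92) to Per2 (0.860 to 1.36), from Per2 to Per3 (0.299 to 0.549) and from Per3 to Dbp (0.169 to 0.286). In old KO it was Arntl 13.9, Clock 10.3, Cry1 9.18, Per1 5.69, Nr1d1 3.89, Cry2 3.66, Npas2 3.23, Per2 1.88, Per3 0.405 and Dbp 0.179 CPM per kb.

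The ratio of Arntl to Nr1d1, an activator and its repressor, put the libraries on 1 scale. Per kb of exon it was 1.59, 0.722, 1.45, 0.966 and 0.604 in young WT, 1.63, 5.67, 1.74, 7.43 and 5.68 in old WT and 4.53, 5.54, 1.22, 11.7 and 4.37 in old KO. Every old WT library was above every young WT library, if only narrowly for old WT 1 and 5, and old KO 4 lay within the young WT range. The ratio was formed with these values in view and is given without a test.

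The spread between libraries of a group differed widely among the 10 genes. The SD of log2 CPM within groups, pooled over the 3 groups, was 0.821 for Nr1d1, 0.812 for Dbp and 0.753 for Per1, which puts them at the 97.4, 97.3 and 96.5 percentile of the 14258 genes tested. Clock, at 0.133, was at the 17.9 percentile. The other members were at 0.391 (Cry1), 0.388 (Per2), 0.373 (Npas2), 0.322 (Arntl), 0.289 (Per3) and 0.247 (Cry2), all above the median of all genes, which was 0.229 with an interquartile range of 0.150 to 0.385.

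The group that held the spread was not the same for each of the 3 most variable genes. The SD of log2 CPM of Nr1d1 was 0.479 in young WT, 0.872 in old WT and 1.02 in old KO. Dbp had 0.745, 0.263 and 1.16 in the same order, and Per1 0.951, 0.496 and 0.742. Per1 was thus most spread in the young group and Nr1d1 and Dbp in the old KO group; differences in spread between groups were not tested.

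**Figure D3:**
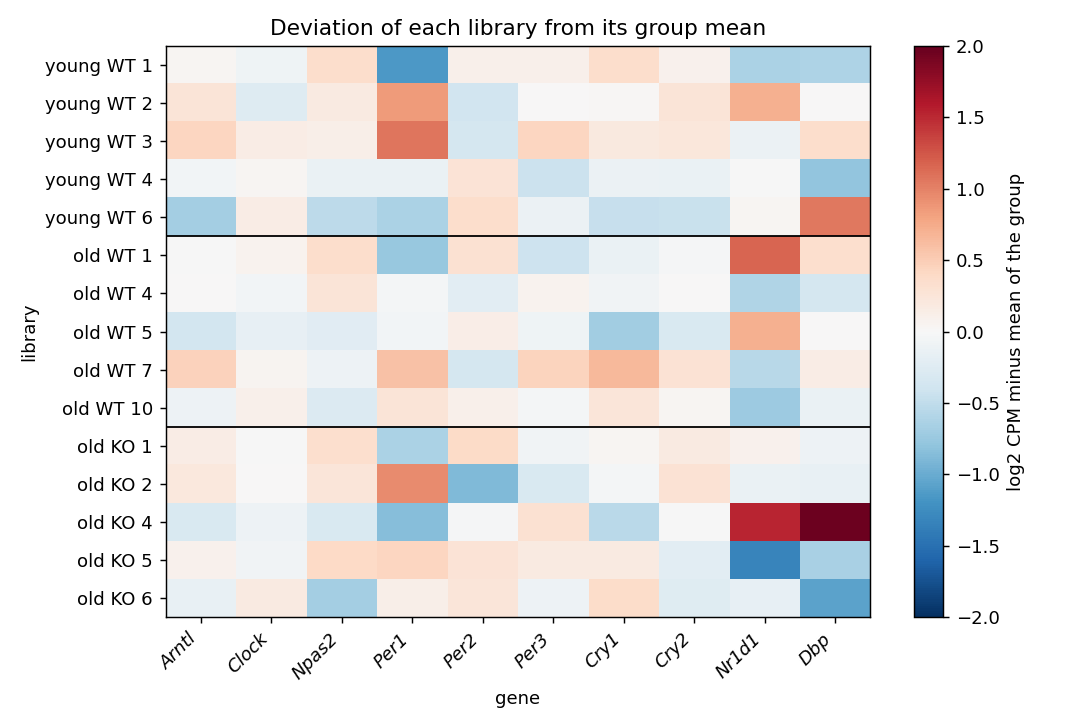
Deviation of log2 CPM from the mean of the group (colour, blue below and red above) for each clock gene (columns) in each of the 15 libraries (rows, groups divided by lines). Old KO 4 stands out in Nr1d1 (1.53) and Dbp (1.96), and young WT 6 is blue in Arntl, Npas2, Cry1 and Cry2 and red in Dbp.

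The libraries that stood apart did so in several clock genes at once. Old KO 4 was the highest old KO library for Nr1d1 and Dbp, by 1.53 and 1.96 log2 units over its group mean, and the lowest for Arntl, Clock, Per1 and Cry1. Young WT 6, the library with the lowest total count, held the lowest level of all 15 libraries for Arntl, Npas2, Cry1 and Cry2 and the highest for Dbp. Without young WT 6, the age difference of Cry1 was not called, and that of Npas2 and of Nr1d1 was. Old WT 7 was the highest old WT library for Arntl, Per1, Per3, Cry1 and Cry2.

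How the genes moved together from library to library was described by Pearson's r and Spearman's rho of log2 CPM with the group means removed, over 15 libraries and all 45 pairs of the 10 genes. All values of a library share its depth and its scaling, and no p is attached. The median r was -0.02, 2 pairs were above 0.7 and 0 pairs were below -0.7 before rounding. Arntl and Cry2 had r = 0.85 and rho = 0.86, and 0.75 and 0.78 over the 13 libraries left without old WT 7 and young WT 6, which lie farthest from the Arntl median. Arntl and Cry1 had r = 0.71 and rho = 0.56, which went to 0.55 and 0.34 without the same libraries, so this relation rests partly on them.

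Arntl and Npas2 had r = 0.60 and rho = 0.57, and 0.63 and 0.55 without the 2 libraries farthest from the Arntl median. Cry1 and Nr1d1 ran in opposite directions, with r = -0.65 and rho = -0.71 (-0.63 and -0.68 without the 2 farthest libraries). Arntl and Nr1d1 had only r = -0.30 and rho = -0.27. Nr1d1 and Dbp had r = 0.63 and rho = 0.61, but 0.32 and 0.46 without old KO 4 and old WT 1. The period genes did not move as a block, as Per1 and Per2 had r = -0.67 and rho = -0.59 (-0.70 and -0.65 without the 2 farthest libraries), and Per2 and Cry2 had r = -0.70 and rho = -0.70 (-0.61 and -0.55).

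**Figure D4:**
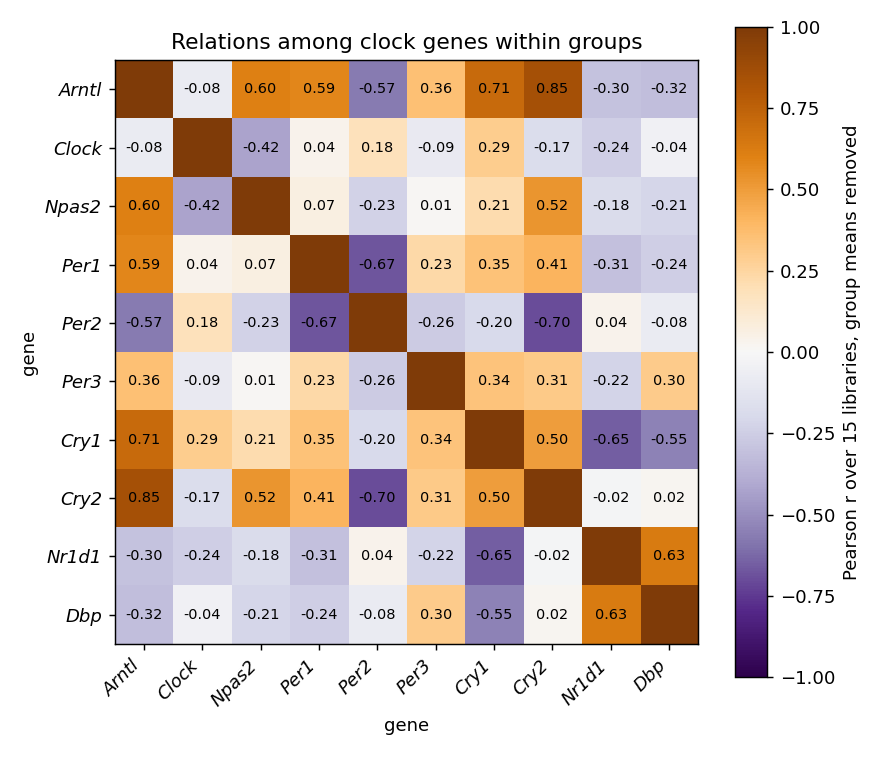
Pearson's r between the log2 CPM of each pair of the 10 clock genes over 15 libraries, after the mean of each group was removed (colour and printed value). Arntl has 0.85 with Cry2 and 0.71 with Cry1, Nr1d1 has 0.63 with Dbp and -0.65 with Cry1, and Clock stays between -0.42 and 0.29 with all others.

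Outside the 10 genes, those whose log2 CPM was most like that of Arntl over the 15 libraries, among 12116 genes with a mean of at least 1 CPM, were Gfod1 (r = 0.90), Slc15a4, Gm8893, Gm11437 and Plxnb1 (0.87 each), and those most opposed were Cbara1 (-0.91), Ptrh2 (-0.90), Dync1li2 (-0.87), Kdm5c (-0.87) and Itgb2l (-0.86). For Dbp they were Scaper (0.81), 2310028H24Rik, Mnat1 and Ttc33 (0.80 each) and 2210408I21Rik (0.78), and at the other end Tubg1 and Ppil1 (-0.84 each) and Hba-a1, Hba-a2 and Tmem66 (-0.83 each). Group differences enter these values, since group means were not removed. The genes named are the extremes of 12116, and such extremes can be high without a relation, which was not tested. Those of Dbp also rest on its 3 to 54 reads per library.

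The other regulators of the loop were counted for the age comparison in the same edgeR fit. Of 27 listed, 26 were tested, and 2 rose and 1 fell in old WT, that is 11.5% beside 18.8% of all genes, with a median log2 fold change of -0.04. The count was 5 without young WT 3 or young WT 6 (2246 of 14383 and 3284 of 14412 genes called) and 6 with DESeq2 (3243 of 16273 genes). Nfil3, which encodes the repressor that competes with DBP at D-boxes, was at 19.2, 26.1, 37.2, 12.9 and 18.3 CPM in young WT and at 50.5, 42.9, 38.5, 61.5 and 46.9 CPM in old WT. No old WT library was below a young WT library (log2 fold change 1.08, adjusted p = 0.0038).

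Fbxl21, an F-box gene whose product acts on cryptochrome stability, rose from 4.03 ± 0.572 to 6.999 ± 2.22 CPM (SD, n = 5 each; log2 fold change 0.80, adjusted p = 0.0155), with overlapping ranges (3.51 to 5.001 against 4.26 to 9.22 CPM). Ciart, which encodes a repressor of CLOCK and ARNTL, fell from 3.29 ± 3.86 to 0.633 ± 0.436 CPM (SD, n = 5 each; -2.39, adjusted p = 0.0155), with young WT 3 alone at 10.1 CPM and an old WT range, 0.356 to 1.39 CPM, that overlaps the lower young WT values. Without that library the log2 fold change of Ciart was -1.34 (adjusted p = 0.0496).

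Between the old groups, 0 of the 26 other regulators passed, beside 0.533% of all genes. Against young WT, 4 rose in old KO (Hlf, Nfil3, Fbxl21 and Nono) and 3 fell (Arntl2, Fbxw11 and Gsk3b), that is 26.9% beside 23.3% of all genes. The calls of Hlf and Gsk3b were each lost in 11 of the 15 fits without 1 library and that of Nono in 2. Hlf, a relative of Dbp, was at 55.9 ± 8.58 CPM in young WT and 72.4 ± 9.90 CPM in old KO, and Arntl2, a relative of Arntl, at 1.37 ± 0.419 and 0.606 ± 0.166 CPM (SD, n = 5 each).

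Clock-controlled output genes of liver went both ways with age. Of 26 tested, 5 rose and 5 fell, that is 38.5% beside 18.8% of all genes, with a median of -0.24. Noct, the gene of nocturnin, a rhythmic protein of the deadenylase family, rose from 174 ± 19.3 to 496 ± 160 CPM (SD, n = 5 each; log2 fold change 1.51, adjusted p = 0.0005), and Mreg (0.70), Lonrf3 (0.66), Tspan4 (0.57) and Nampt (0.53), the gene of the rate-limiting enzyme of NAD+ salvage, rose less. The calls of Lonrf3 and Nampt were lost in 8 and 6 of the 15 fits without 1 library.

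The output genes that fell were Lpin1, a phosphatidate phosphatase (log2 fold change -2.33, adjusted p = 0.0081), Alas1, the first enzyme of haem synthesis (-1.45, adjusted p = 0.0027), Insig2, which holds back sterol synthesis (-1.42, adjusted p = 0.0030), Por, the electron donor of cytochromes P450 (-0.88, adjusted p = 0.0089), and Gys2, the liver glycogen synthase (-0.66, adjusted p = 0.0015). Lpin1 went from 209 ± 136 to 41.7 ± 12.4 CPM (SD, n = 5 each), and its young WT libraries ran from 36.0 to 337 CPM, so that 1 or more of them lay within the old WT range. Between the old groups only Avpr1a, a vasopressin receptor gene, passed (0.99, adjusted p = 0.0247), from 29.1 ± 8.09 CPM in old WT to 57.7 ± 10.9 CPM in old KO (SD, n = 5 each), that is 1 of 26 beside 0.533% of all genes. It was lost in 5 of the 15 fits without 1 library. DESeq2 called 4 output genes in this comparison, beside 309 of 14424 genes. Against young WT, 8 output genes rose and 4 fell in old KO, that is 46.2% beside 23.3% of all genes. Hlf, which is also counted among the other regulators, is 1 of the 8.

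**Figure D5:**
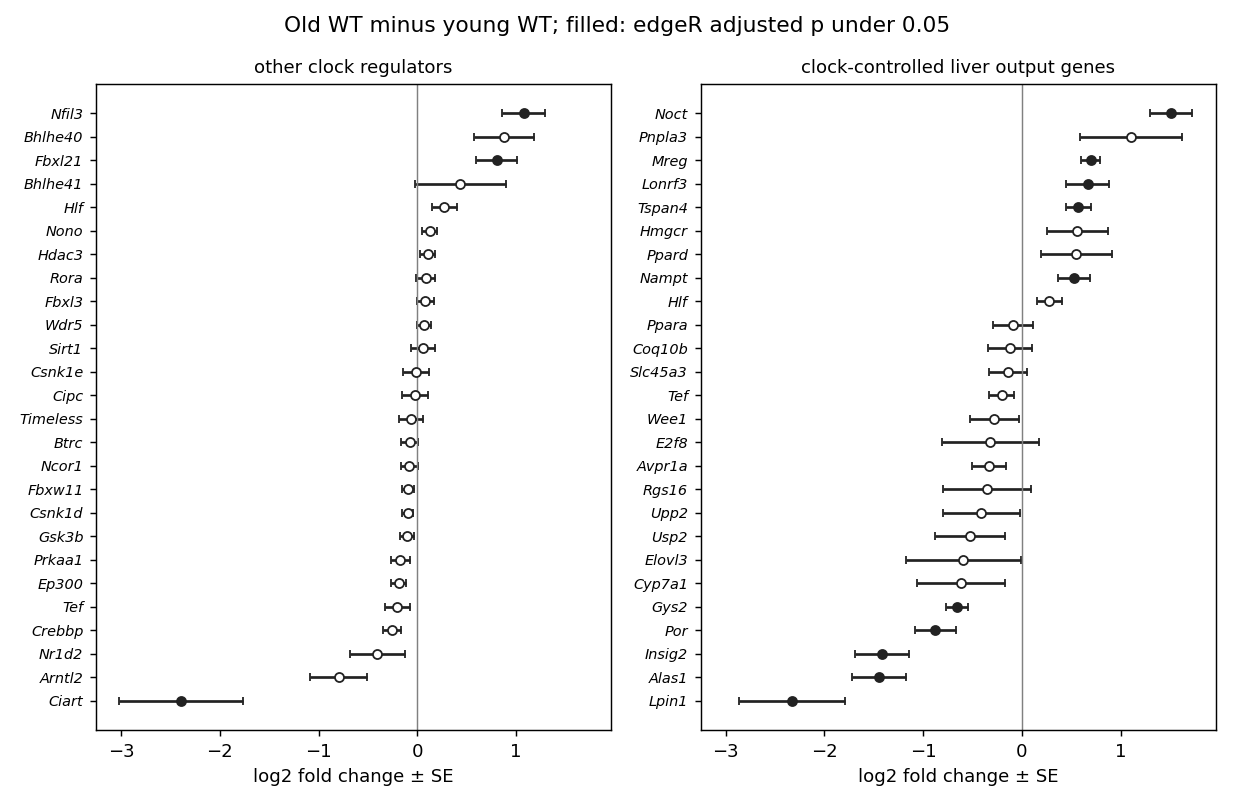
Log2 fold change (horizontal axes) with SE, old WT minus young WT, of the other clock regulators tested and of the clock-controlled output genes; filled points passed the edgeR test at an adjusted p under 0.05. Nfil3 and Fbxl21 lie to the right of 0 and Ciart to the left, and the output genes called range from Lpin1 at -2.33 to Noct at 1.51.

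The core genes also answer to feeding, temperature and glucocorticoids, and lists of genes for these were counted in the same fit. The shares of all genes called were 18.8% with age, 0.533% between the old groups and 23.3% in old KO against young WT. They are the background of each count from the fit to all 15 libraries. Of 9 glucocorticoid-responsive genes other than Per1, 0 passed in each comparison (medians -0.80 with age, 0.25 between the old groups and -0.40 in old KO against young WT). With age, however, 4 passed without young WT 6, where 3284 of 14412 genes were called. In the same comparison 2 passed without young WT 3 and 2 with DESeq2, beside 2246 of 14383 and 3243 of 16273 genes. Of 9 temperature-responsive genes tested, 1 fell with age (Hspb1, -0.88; lost in 2 of the 15 fits without 1 library) and 0 passed between the old groups. In old KO against young WT, 1 of them rose (Dnajb1, 0.70) and 2 fell (Cirbp, -0.80; Rbm3, -0.42). The calls of Dnajb1 and Rbm3 were each lost in 12 of the 15 fits, and that of Cirbp was kept in all 15.

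Of 10 fasting-responsive genes, 3 fell with age (Cpt1a, -0.63; Ppargc1a, -0.98; Cyp4a14, -1.27). Ppargc1a was lost in 10 and Cyp4a14 in 4 of the 15 fits without 1 library, and 1 of the 10 genes was called without old WT 1, 4 or 5. Of 9 feeding-responsive genes, 1 rose with age (Scd1, 1.65). Between the old groups 0 of either list passed. In old KO against young WT, 2 fasting genes fell and 3 feeding genes rose (Scd1, 1.74; Pnpla3, 1.73; Acly, 0.60). Pnpla3 is also counted among the output genes that rose in this comparison. Acly was lost in 10 and Pnpla3 in 2 of the 15 fits without 1 library, and the feeding count went to 1 without old KO 1, while without old KO 6 the counts were 5 for each list. The part of these states in the clock gene results was not tested.

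Markers of cell types were counted in the same fit. The shares of all genes called are again the background of each count. They were 18.8% with age, 0.533% between the old groups and 23.3% in old KO against young WT. Beside the age comparison, 1 of 8 macrophage markers, 2 of 5 T cell markers, 1 of 4 B cell markers and 1 of 5 bile duct markers rose, and 2 of 6 hepatocyte, 2 of 6 endothelial and 1 of 6 stellate cell markers fell. Their summed levels overlapped between young and old WT (hepatocyte 82121 to 130233 against 89574 to 135260 CPM, macrophage 162 to 370 against 206 to 511 CPM, T cell 1.83 to 3.97 against 2.38 to 8.25 CPM). Beside the old KO and old WT comparison, 3 of 8 macrophage markers fell, and their sum was 128 to 192 CPM in old KO. In old KO against young WT, 4 of 8 macrophage, 2 of 6 endothelial and 2 of 6 stellate cell markers fell, and 1 of 6 hepatocyte, 1 of 6 stellate cell, 1 of 5 bile duct and 5 of 6 red blood cell markers rose (red blood cell sum 107 to 396 against 47.3 to 110 CPM). Of 4 adipocyte markers only Cidec was tested, which fell in both old groups against young WT (summed 1.36 to 12.8 CPM in old WT against 14.5 to 119 CPM in young WT). Of 5 pancreas markers 1 was tested, which rose in old KO against young WT, and 3 had no count in any library. The part of these markers in the clock gene results was not tested.

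On NCBIM37 the genes whose levels differed with age are at chr1:39250576-39420079 on the plus strand (Npas2), chr10:84594447-84647799 on the minus strand (Cry1) and chr11:98629246-98636647 on the minus strand (Nr1d1), and Per2 is at chr1:93312561-93355907 on the minus strand. Nr1d1 is 12.3 Mb and Per1 17.4 Mb from the deleted Rps6kb1 on chromosome 11. Of the listed genes called in old KO against young WT, Hlf, Fbxw11 and Acly also lie on chromosome 11. Hlf, at chr11:90197849-90252231, is nearer to Rps6kb1 than Nr1d1 is. The part of these positions in the levels was not tested. The exons of Nr1d1 share 263 bases with Thra on the opposite strand, those of Dbp 491 bases with Sphk2 and those of Cry2 295 bases with D930015M05Rik, also on opposite strands. As the strand setting of the counting is not given in the sources used here, reads of such pairs cannot be told apart, and the levels of Nr1d1, Dbp and Cry2 carry that uncertainty.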

How the data were processed

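RNA of whole liver was sequenced by the authors as stranded poly(A) libraries with single-end reads. Per the submitters' processing notes, CASAVA, TopHat2 2.0.11, DESeq2 1.18.1 and build mm9 were used, and per the methods of the study reads per gene were counted with HTSeq. The annotation and the strand setting are not given in the sources used here. What the authors deposited is 1 table of unnormalized counts, 1 column per library, and no column belonged to another sample. Groups and replicate numbers came from the sample titles, and per the study's figure legends each library is 1 mouse. Replicates differed by far more than sampling noise (chi-square per degree of freedom 18.2 to 118), so each counted once.

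Counts were scaled by TMM and filtered with filterByExpr on the 3 groups in edgeR 4.0.16 (R 4.3.3), and a quasi-likelihood model (glmQLFit, glmQLFTest) was fitted to 14258 genes and 15 libraries with 3 contrasts, which share libraries. P-values were adjusted by Benjamini-Hochberg with a threshold of 0.05. Log2 CPM used a prior count of 2. Alternatives were DESeq2 1.42.0, RLE size factors, no filter, the 10 libraries of a contrast alone, a replicate block, and each library left out. Differences in a gene with few reads, such as Dbp, carry a large counting error.

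The members and lists were chosen with earlier results of these data known. Genes were named by rule: the 10 members, Rps6kb1, listed genes past the threshold, and the 5 genes most and least like Arntl and Dbp. Some listed genes are not reported here and were left out of the list counts. All 157 list entries matched the table by symbol or synonym. For Noct, whose synonyms matched several identifiers, the identifier with the largest count was taken. Promoter sequences were those of RefSeq on GRCm38.p6 and positions those of GENCODE M1 on NCBIM37; coordinates of the builds were not mixed. Scripts were tested on simulated data.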

Additional observations from a re-analysis of the deposited data

Results flagged for a closer look

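Old KO 4 stood apart from the other old KO libraries in 2 clock genes on the CPM scale. Its Nr1d1 level was 28.5 CPM, and its gap to the nearest library was 0.731 of the range of the group. Its Dbp level was 1.63 CPM, with a gap of 0.867 of the range. Both are above the critical value of 0.71 of Dixon's test for 5 samples. On the log2 CPM scale the same gaps were 0.503 and 0.682 of the range, under that value, and 0 of the 30 groups of 5 values were past it. The CPM scale was added after the values were seen. The critical value is one that about 1 in 20 groups of normally distributed values pass, and the CPM values were not checked for this. On the CPM scale 2 of 30 groups were past it. Both flags come from the same library, so they are not independent and were not weighed against that rate. Values without old KO 4 stand beside the results above.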

How the results depend on the processing

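The age difference of Npas2 was called in 15 of 15 fits without 1 library (log2 fold change 0.89 to 1.08) and in 5 of 5 other alternatives, with adjusted p-values up to 0.0261. Without 1 library, the number of clock genes called with age ranged from 1 to 3, and it was 1, Npas2, without young WT 2, young WT 4, old WT 4, old WT 7 or old WT 10. Between the old groups it was 0 in each of these fits and 1 (Per2) with DESeq2, and in old KO against young WT it ranged from 2 to 4. Over all genes the counts ranged from 1748 (without young WT 1) to 3284 (without young WT 6) with age, where the fit to all libraries gave 2685. They ranged from 9 (without old WT 4) to 108 (without young WT 2) between the old groups, where that fit gave 76 and DESeq2 309, and from 2460 to 3829 in old KO against young WT. In a fit to the 10 libraries of the comparison alone, Cry1 had 0.68 with age at an adjusted p of 0.0549. The causes of these shifts were not tested.

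Some differences that were not called took the other sign. Without 1 library, the log2 fold change of Clock ranged from -0.0403 to 0.0654 with age, from -0.0217 to 0.0501 between the old groups and from -0.0159 to 0.0834 in old KO against young WT, and that of Cry2 with age from -0.0529 to 0.105. Between the old groups, Npas2 ranged from -0.0524 to 0.19, Per1 from -0.14 to 0.33, Per3 from -0.10 to 0.12 and Nr1d1 from -0.60 to 0.36, and Nr1d1 was at 0.00267 with DESeq2.

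Replicate numbers did not pair the libraries. None of the 9 same-numbered pairs had a correlation over 0.1 (-0.15 to 0.08), and 0 of 12 libraries that share a number correlated best with their own number. With the replicate block, 899 genes were called with age, 1 of them a clock gene (Npas2), and 6 between the old groups. Of the lists, 5 output genes and 0 fasting genes were called with age and 0 output genes between the old groups. Under the block Cry1 had 0.43 (adjusted p = 0.347) and Nr1d1 -0.72 (adjusted p = 0.595) with age, Nr1d1 -1.45 (adjusted p = 0.104) and Arntl 0.55 (adjusted p = 0.0245) in old KO against young WT, and Per3 -0.00295 with age and 0.21 between the old groups. The block leaves 5 residual degrees of freedom.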
